A study of Homo sapiens with 16 samples.

Results

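The regions described here are 502 sites of open chromatin that both of 2 leukaemia lines had in common, and that lost their ATAC-seq peak in DND41 but held it in MOLT4 when the cells were given ACBI-1. They were chosen by peak calls. Peaks of all 16 libraries on chromosomes 1 to 22 and X that shared at least 1 base were merged, which gave 131357 regions. Of these, 18483 had a peak in all 8 DMSO libraries and are called shared regions. A shared region was taken as a DND41-lost site when it had a peak in at most 1 of the 4 ACBI-1 libraries of DND41 and in at least 3 of the 4 ACBI-1 libraries of MOLT4, which held for 502. The calls under ACBI-1 are therefore a description of the choice and were not tested. The width of the peak in DMSO was not used in the choice and was compared between the lines.

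DND41 and MOLT4 are long-established human cell lines from T-cell acute lymphoblastic leukaemia. ATAC-seq uses the Tn5 transposase to insert adapters where DNA is accessible, so that a peak marks open chromatin. Both lines were cultured with ACBI-1 at 100 nM or with DMSO and taken at 3 h and at 24 h, and every one of the 8 groups so made had 2 libraries. Nothing in the labels tells whether these were separate cultures, and the spread behind the p-values may be technical. For 8 of the 16 libraries the field for the line disagrees with the title, and the title was followed. No gene was assigned to a region, so the lines were not checked against marker genes.

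ACBI-1 is a PROTAC, a molecule that brings its target to a ubiquitin ligase. It directs the ATPases SMARCA2 and SMARCA4, and the subunit PBRM1, to degradation. PBRM1 is a subunit, and the ATPases are the motor, of SWI/SNF, the complex that slides or evicts nucleosomes. In many lineages enhancers and other distal elements depend most on its continued activity for their accessibility, and promoters depend on it less.

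The deposited lists held 26145 to 46712 peaks per library and positions only. Read depth is unknown, so a missing peak can lie under the detection limit of its library, and no counting interval was given. DND41 ACBI-1 replicate 2 at 3 h stood apart at the DND41-lost sites.

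Loss in DND41 was seen at 3 h and at 24 h, whereas the peaks held in MOLT4 were fewer at 24 h. In DND41, 45 and 185 of the 502 sites had a peak in ACBI-1 replicates 1 and 2 at 3 h. At 24 h, 44 and 36 sites did. In MOLT4, 483 and 486 sites had a peak in the ACBI-1 libraries of 3 h, and 428 and 389 in those of 24 h. Replicate 2 of 3 h in DND41 was thus high among its group, and both 24 h libraries of MOLT4 were low among theirs.

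**Figure D1:**
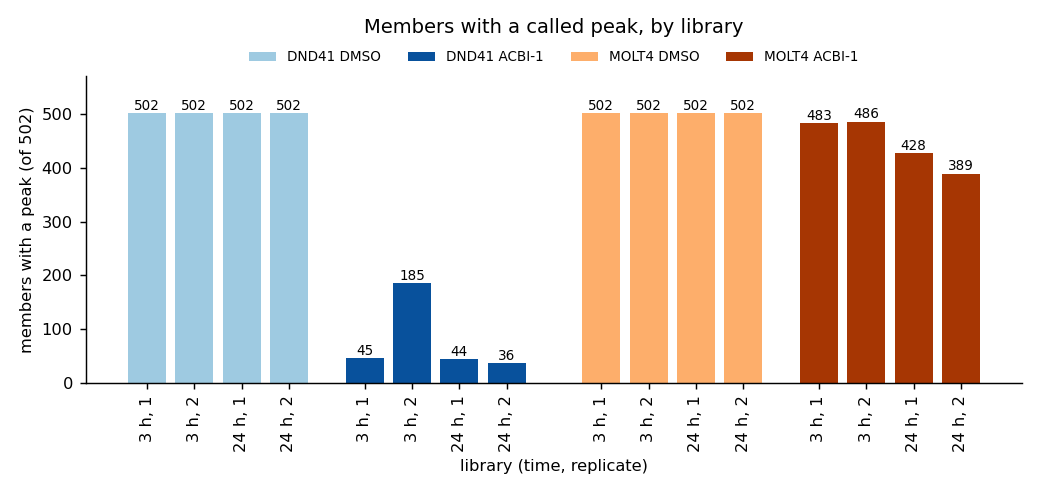
Number of DND41-lost sites with a peak in each library, out of 502. Bars are single libraries, labelled by time and replicate, and the 8 DMSO libraries are at 502 by the choice of sites. The 4 ACBI-1 libraries of DND41 range from 36 to 185 and those of MOLT4 from 389 to 486.

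The 502 sites fall into 4 patterns. No DND41 peak under ACBI-1 and all 4 MOLT4 peaks were found at 104 sites, or 20.7%. A further 88 had no DND41 peak and 3 MOLT4 peaks. With 1 DND41 peak there were 176 sites with 4 and 134 with 3 MOLT4 peaks. Of the 310 sites with 1 DND41 peak, 185, or 59.7%, had it in replicate 2 of 3 h. Of the 222 sites with 3 MOLT4 peaks, 113 lacked the peak in replicate 2 and 74 in replicate 1 of 24 h, against 19 and 16 for the replicates of 3 h. The missing MOLT4 call was therefore mostly a 24 h call.

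In DMSO, taken at the same times as ACBI-1, most DND41-lost sites had a narrower peak in DND41 than in MOLT4. Their median width was 360 and 253 bp in DND41 replicates 1 and 2 at 3 h, and 379 and 351 bp at 24 h. In MOLT4 it was 440 and 453 bp at 3 h, and 581 and 551 bp at 24 h. Each MOLT4 median lay above all 4 DND41 medians. Ranked by width among the 18483 shared regions of the same library, the median site stood at percentile 13.5 to 16.4 in the DND41 DMSO libraries and at percentile 33.8 to 35.9 in those of MOLT4. The sites were thus among the narrow shared peaks of both lines, and further down that order in DND41.

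**Figure D2:**
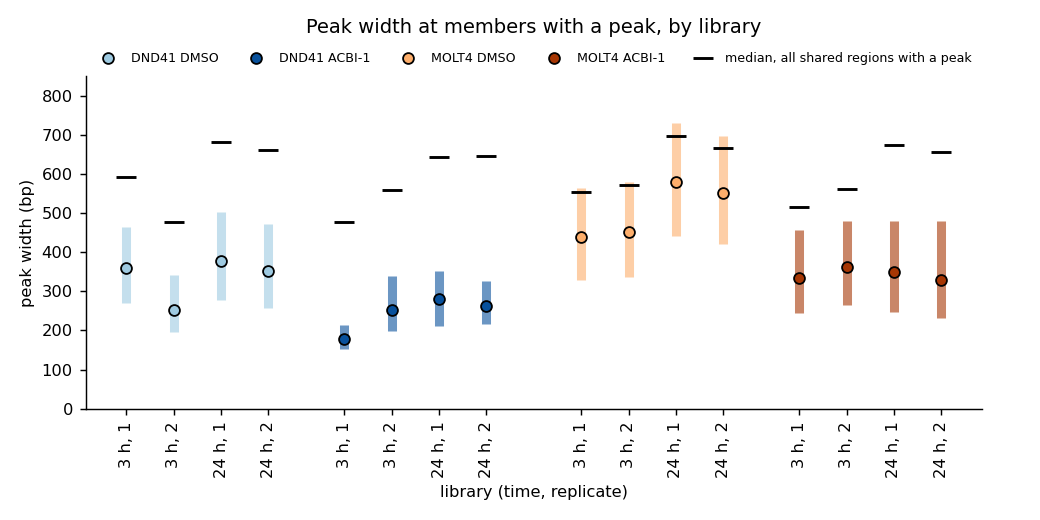
Peak width in bp at the DND41-lost sites that had a peak, by library. Circles are medians over sites, bars span the 25th to the 75th percentile, and black dashes are medians over all shared regions with a peak in that library. The MOLT4 DMSO medians, 440 to 581 bp, lie above the DND41 DMSO medians, 253 to 379 bp.

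The overall width of peaks did not separate the lines. Over all shared regions the median DMSO peak was 603 ± 92.2 bp in DND41 and 623 ± 69.8 bp in MOLT4 (SD, n = 4 each), a log2 difference of 0.05 for MOLT4 minus DND41. That was not larger than the spread between libraries (two-sided exact permutation test, labels exchanged within each time, p = 0.722, where the smallest possible is 0.0556). Differences for single regions were then taken on log2 widths centred on each library's median.

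On this centred scale the median DND41-lost site had a peak wider in MOLT4 by 0.49 (log2), with a middle range of sites from 0.20 to 0.76. Over all shared regions the median was -0.02. The peak was wider in MOLT4 at 444 of the 502 sites, or 88.4%, against 46.8% of all shared regions. Tested region by region with limma over all 18483 shared regions, 93 of the 502 sites, or 18.5%, had a wider DMSO peak in MOLT4 at a Benjamini-Hochberg adjusted p under 0.05. The background share of such calls was 2.42%. Wider in DND41 were 2 sites, or 0.398%, against a background of 2.58%. The 93 sites made up 20.8% of the 447 regions called wider in MOLT4, while the DND41-lost sites were 2.72% of the regions tested. The median difference of the 93 was 1.09, from a median of 295 bp in DND41 to 664 bp in MOLT4. The 407 sites not called in either direction had a median difference of 0.39.

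All 4 MOLT4 widths lay above all 4 DND41 widths, in bp, at 149 sites, or 29.7%, against 4.92% of all shared regions. The reverse held at 3 sites, or 0.598%, against 4.24%. The number of called sites fell on leaving out any 1 DMSO library, and by most without a MOLT4 library. It was 44 and 46 without replicate 1 or 2 of MOLT4 at 24 h, with backgrounds of 1.03% and 1.09%. Without either MOLT4 replicate at 3 h it was 58, with backgrounds of 1.45% and 1.33%. Without 1 DND41 library it was 65 to 84, with backgrounds of 1.47 to 1.61%. The called share of the sites was 8.56 to 14.2% in these fits, each time above its background. With the 8 widths not centred the calls over all shared regions split 298 to 185 in favour of MOLT4, where the centred split was 447 to 476. In that fit 65 DND41-lost sites, or 12.9%, were called wider in MOLT4, against a background of 1.61%.

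**Figure D3:**
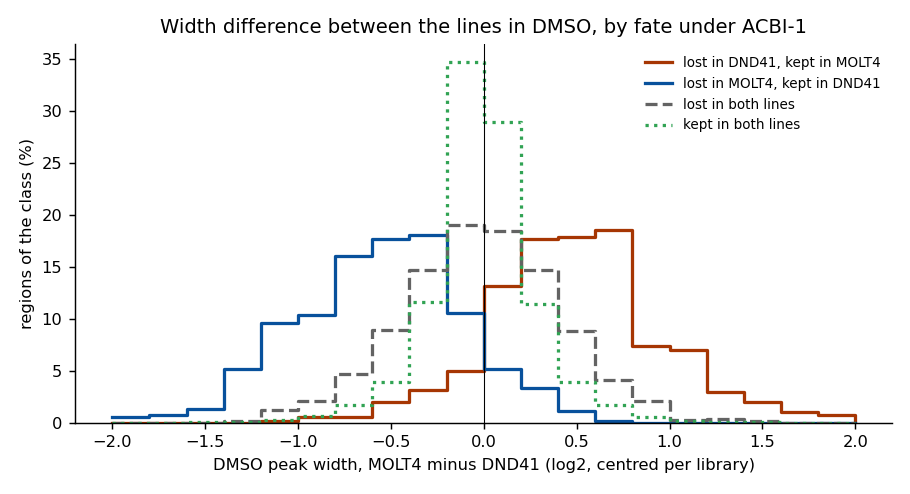
Distribution of the DMSO width difference, MOLT4 minus DND41 in log2 units centred per library, for shared regions grouped by their fate under ACBI-1. Lines give the percent of each class per bin of 0.2. The DND41-lost sites lie to the right of 0 with a median of 0.49, MOLT4-lost sites to the left with a median of -0.54, and both other classes are centred near 0.

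The opposite class mirrored this. There were 541 MOLT4-lost sites, with a peak in at most 1 ACBI-1 library of MOLT4 and at least 3 of DND41. Their median DMSO peak was 483 bp in DND41 and 333 bp in MOLT4, a median log2 difference of -0.54, and 114, or 21.1%, were called wider in DND41 and 0 wider in MOLT4 (limma, as above). At the 747 sites lost in both lines by the same limits the peak was narrow in both, 304 and 315 bp, with a median difference of -0.02. At the 13851 regions kept in both lines it was 672 and 704 bp, also with a median difference of -0.02. The DND41-lost sites, at 327 and 478 bp, had a DND41 width near that of sites lost in both lines and a MOLT4 width between theirs and that of kept regions. These classes were set by the same calls, so their order was not tested.

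The width of the peak and its call under ACBI-1 are not separate measures of a site, since narrow peaks lost their call more often in both lines. Of shared regions with a DND41 width of 250 to 350 bp, 34.3% had a peak in at most 1 ACBI-1 library of DND41. With a MOLT4 width in that range, 33.5% had a peak in at most 1 ACBI-1 library of MOLT4. Between 350 and 500 bp the shares were 12.0% and 14.9%, and from 700 bp they were 0.0613% and 0.152%. Under 250 bp they were 51.2% and 45.7%. Each share is of regions ordered by the width in the line concerned, and the shares were not tested against each other. The DND41-lost sites fell on different sides of this scale. In DND41, 85 of them were under 250 bp and 214 between 250 and 350 bp. In MOLT4, 11 and 68 were.

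The share of shared regions that were DND41-lost sites followed the width difference. It was 37.1%, or 69 of 186, where the MOLT4 peak was wider by a log2 of at least 1, and 16.6% between 0.5 and 1. Between 0 and 0.25 it was 1.74%, and between -0.25 and 0 it was 0.476%. Even in the highest bin most regions were not DND41-lost sites, and 58 DND41-lost sites had the wider peak in DND41 on the centred scale.

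Sites with the most complete pattern had the largest difference. Among the 104 with no DND41 and 4 MOLT4 peaks the median log2 difference was 0.70, and 41, or 39.4%, were called wider in MOLT4. Among the 134 with 1 DND41 and 3 MOLT4 peaks it was 0.27, and 12, or 8.96%, were called. The 185 sites whose single DND41 peak was in replicate 2 of 3 h had a median of 0.36, and the 317 without a peak in that library 0.57. Of those 317, 72, or 22.7%, were called wider in MOLT4 and 0 wider in DND41. Just inside the limit, with 1 DND41 peak, the median was 0.41 over 310 sites. Just outside, with 2, it was 0.22 over 729 regions. On the MOLT4 side it was 0.37 over 222 sites with 3 peaks, and 0.23 over 458 regions just outside with 2.

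Both times showed the same direction. The median difference of the DND41-lost sites was 0.40 at 3 h and 0.54 at 24 h, and the MOLT4 peak was the wider at both times at 359 sites, or 71.5%, against 28.9% of all shared regions. The wider DND41 peak at both times was found at 32 sites. A test of line by time called 0 of the 18483 regions (limma, smallest adjusted p = 0.507), with 44 of the 502 sites, or 8.76%, and 1147 of all regions, or 6.21%, at an unadjusted p under 0.05. At 35 of the 44 the difference was larger at 24 h and at 9 larger at 3 h, where all regions gave 566 and 581. The peak names carry a different tag at each time, so time and any difference of processing behind the tag cannot be told apart. With the 4 DMSO libraries of 1 time alone, limma called 0 sites at either time. At an unadjusted p under 0.05, 158 sites were wider in MOLT4 at 3 h and 179 at 24 h, or 31.5% and 35.7%, where all regions gave 6.71% and 7.67%.

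The MOLT4 peak reached past the DND41 peak on both sides at 360 sites, or 71.7%, against 31.2% of all shared regions. The median reach was 70.5 bp on the side of lower coordinates and 64.1 bp on the other. Peak centres differed between the lines by a median of 37.8 bp, against 28.6 bp for all shared regions, so the peaks of both lines mostly lay on the same spot. At 448 sites, or 89.2%, every DMSO library had a single peak in the region. At 447 sites at least 1 base was covered by the peaks of all 8 DMSO libraries and of at least 3 ACBI-1 libraries of MOLT4.

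Where MOLT4 held the call, the peak was mostly narrower than in DMSO. The median ACBI-1 peak was 335 and 362 bp at 3 h, or 78.8 and 86.6% of the width of the same sites in DMSO. At 24 h it was 348 and 330 bp, or 67.0 and 63.7%. In the same 4 libraries, regions kept in both lines had 89.5, 96.9, 92.3 and 89.4% of their DMSO width. By their median the held sites were thus narrower than in DMSO in all 4 MOLT4 libraries, and by most at 24 h, when calls were also fewer. The peak was narrower at 74.1 to 85.3% of the held sites of a library. This was not particular to these sites. MOLT4-lost sites that held a peak in DND41 had 72.2 and 98.0% of their DMSO width in DND41 ACBI-1 at 3 h. At 24 h they had 67.5 and 66.9%. At the DND41-lost sites the few remaining DND41 peaks were 177 and 252 bp at 3 h and 280 and 263 bp at 24 h. These widths belong to the contrast that chose the sites and were not tested.

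The 10 called sites with the largest difference and no overlap between the lines are given by position. The site on chromosome 4 from 186130426 to 186131787 (hg19) had 277 and 315 bp in DND41 DMSO replicates 1 and 2 at 3 h, and 364 and 254 bp at 24 h. In MOLT4 DMSO it had 1092 and 1274 bp at 3 h, and 1267 and 1294 bp at 24 h. The lowest MOLT4 width, 1092 bp, was far above the highest DND41 width, 364 bp. The peak centres of the lines lay 445.6 bp apart, so the DND41 peak lay off the middle of the MOLT4 peak. Different parts of the region may thus have been compared. The log2 difference was 1.98 (SE 0.15; limma, adjusted p = 0.00107). No ACBI-1 library of DND41 had a peak there, and those of MOLT4 had 818, 985, 1247 and 894 bp.

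A site on chromosome 12 from 107724590 to 107725747 had 194 and 144 bp in DND41 at 3 h, and 188 and 292 bp at 24 h. Its MOLT4 widths were 718 and 752 bp at 3 h, and 817 and 680 bp at 24 h. The groups did not overlap, and the log2 difference was 1.85 (SE 0.20; limma, adjusted p = 0.00227). Both peaks shared their centre to within 3.62 bp. Under ACBI-1 a peak of 159 bp was left in 1 DND41 library, and MOLT4 had 611 to 969 bp.

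The site on chromosome 6 from 117868734 to 117870328 had 242 ± 51.4 bp in DND41 and 879 ± 110 bp in MOLT4 (SD, n = 4 each), a log2 difference of 1.82. The region held up to 2 peaks in a library. With only the widest peak counted the difference was 1.30 and was still called (limma, adjusted p = 0.0144). The site held its call in all 4 MOLT4 ACBI-1 libraries, but in 3 of them at 176 to 295 bp, and at 807 bp in replicate 2 of 3 h. A held call can therefore stand for a much smaller peak. On chromosome 7 from 24477696 to 24478455 the peak went from 196 ± 16.3 bp in DND41 to 636 ± 147 bp in MOLT4 (SD, n = 4 each), a log2 difference of 1.62, with 320 to 506 bp left in MOLT4 under ACBI-1. On chromosome 8 from 81490065 to 81491315 it went from 302 ± 29.8 to 965 ± 79.7 bp, also a difference of 1.62.

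The largest difference of all, 1.99 (SE 0.34; limma, adjusted p = 0.0143), was on chromosome 2 from 240546899 to 240549287. It was also the least regular, with 743, 210, 507 and 283 bp in DND41 and 1104, 1120, 2368 and 2210 bp in MOLT4. The region held up to 3 peaks in a library, and the centres of the widest peaks lay 1080.5 bp apart, so different parts of it may have been compared. The other 4 of the 10 had differences of 1.58 to 1.76. The first lay on chromosome 1 between positions 117529110 and 117530120, and the second on chromosome 14 between 95982293 and 95983282. The third was on chromosome 3 between 186236821 and 186237748, and the last on chromosome 11 between 30607470 and 30608371. At the site on chromosome 1 the region held up to 2 peaks in a library. The centres of its widest peaks lay 370.9 bp apart between the lines, so the same limit holds there.

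**Figure D4:**
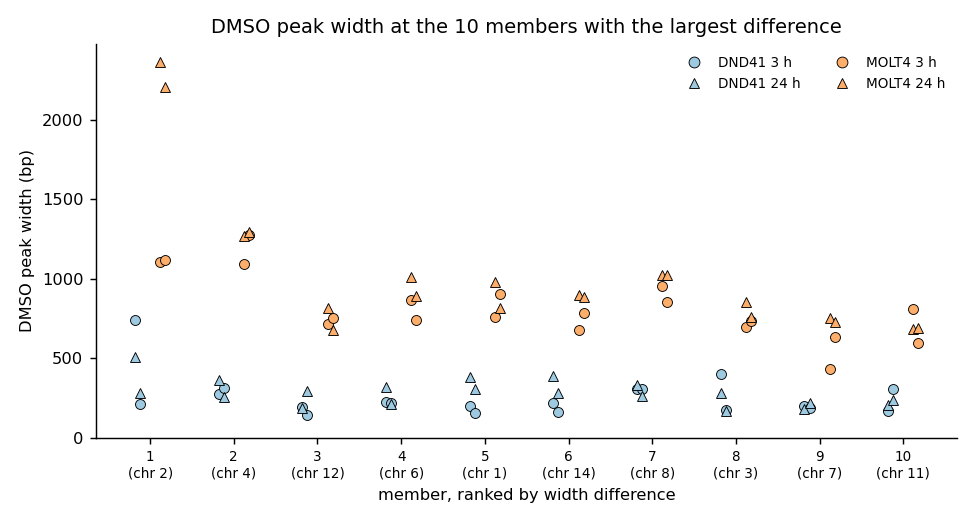
DMSO peak width in bp at the 10 DND41-lost sites with the largest called difference and no overlap between the lines, ranked from left to right, with the chromosome below. Each point is 1 library, circles for 3 h and triangles for 24 h. At each site all 4 MOLT4 points lie above all 4 DND41 points.

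Some DND41-lost sites had broad DMSO peaks in both lines. The broadest with no DND41 and 4 MOLT4 peaks under ACBI-1 was on chromosome 2 from 217556805 to 217558365. It had 543, 544, 1079 and 705 bp in DND41 and 571, 596, 1410 and 1102 bp in MOLT4, in the order of 3 h and then 24 h. The region held up to 2 peaks in a library, and the centres of the widest peaks lay 491.75 bp apart between the lines. Different parts of it may thus have been compared. The lines overlapped, and the log2 difference of 0.26 was not larger than the spread (SE 0.16; limma, adjusted p = 0.391). It was 0.089 without replicate 2 of DND41 at 24 h and 0.36 without replicate 2 of DND41 at 3 h. Its DMSO width thus did not separate the lines, yet no DND41 peak was called under ACBI-1 and MOLT4 had 320 to 978 bp. The next, on chromosome 2 from 31360540 to 31361748, had 684 ± 160 bp in DND41 and 883 ± 170 bp in MOLT4 (SD, n = 4 each), a difference of 0.33 that was not called (limma, adjusted p = 0.249).

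Also broad in MOLT4 were the sites on chromosome 14 from 65753763 to 65754820, with a difference of 0.70 (limma, adjusted p = 0.138), and on chromosome 22 from 20286476 to 20287590. The latter had 478, 474, 486 and 541 bp in DND41 and 823, 799, 1064 and 999 bp in MOLT4. Its groups were far apart and its spread small, and the difference of 0.83 was called (SE 0.12; limma, adjusted p = 0.00689). That call depended on how peaks were joined. With only the widest peak of the region counted, or with peaks assigned to it by their midpoints, the difference was 0.47 and was not called (limma, adjusted p = 0.251 and 0.239).

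The widest DND41 peak of any DND41-lost site was on chromosome 1 from 24648136 to 24649142, at 770 ± 82.1 bp, against 884 ± 34.9 bp in MOLT4 (SD, n = 4 each). The difference of 0.15 was not called (limma, adjusted p = 0.372). Its single DND41 peak under ACBI-1 was in replicate 2 of 3 h and was 769 bp wide, as broad as in DMSO, whereas the other 3 libraries had none. The same library held a peak of 565 bp on chromosome 10 from 125000700 to 125001718, where DND41 had 736 ± 275 bp in DMSO.

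Few sites ran the other way. Of the 58 with a wider DND41 peak, the largest difference, -1.03 on chromosome 14 from 56683345 to 56684496, was not called (limma, adjusted p = 0.145). It rested on replicates of MOLT4 at 24 h that were far apart: without replicate 1 it was -1.43 and called (limma, adjusted p = 0.0332), and without replicate 2 it was -0.61. That region held up to 2 peaks in a library, and with only the widest counted the difference was -0.71 (limma, adjusted p = 0.356). The 2 called sites were on chromosome 1 from 28195314 to 28196305, with 708 ± 153 bp in DND41 and 378 ± 54.6 bp in MOLT4, and on chromosome 4 from 130182288 to 130183005, with 560 ± 84.1 and 307 ± 65.1 bp (SD, n = 4 each). Their differences were -0.95 and -0.94 (limma, adjusted p = 0.0238 and 0.0382). The site on chromosome 4 was no longer called on leaving out any 1 of the 8 DMSO libraries (limma, adjusted p = 0.0508 to 0.102), without centring (0.0721) or with a replicate block (0.065). The site on chromosome 1 lost its call without replicate 1 of DND41 at 24 h, replicate 2 of either line at 3 h, or either replicate of MOLT4 at 24 h (limma, adjusted p = 0.0554 to 0.0727). Both had their single DND41 ACBI-1 peak in replicate 2 of 3 h, and both lacked 1 MOLT4 peak at 24 h. A site on chromosome 13 between positions 25133700 and 25134440, at -0.98, and 1 on chromosome 3 between 58449343 and 58449825, at -0.65, were not called (limma, adjusted p = 0.0942 and 0.257). Without replicate 2 of DND41 at 3 h these became -1.31, which was called (limma, adjusted p = 0.0267), and -0.30.

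Most DND41-lost sites had no other such site close by. Close pairs, 4 in all, held 8 sites with spans of 2568 to 13425 bp, and 494 stood alone. Of the shared regions within 25 kb of a DND41-lost site, 5.52% were DND41-lost sites too, against 2.16% around all shared regions. Within 10 kb the shares were 3.96% and 1.98%. The shares around DND41-lost sites were of 290 shared regions within 25 kb and 101 within 10 kb, and a pair counts from both ends. Around sites lost in both lines, 3.58% were DND41-lost sites within 25 kb and 3.67% within 10 kb. DND41-lost sites were thus more frequent near each other than near shared regions in general. Within 10 kb they were about as frequent near sites lost in both lines. None of this was tested. The closest pair was on chromosome 17 between positions 64536191 and 64538758, with a median difference of 0.58. The next pair of chromosome 17 lay between 76744657 and 76756047, and the third, on chromosome 21, between 43870007 and 43881712. Their medians were 0.55 and 0.33. None of these 6 sites was called alone, and their DND41 and MOLT4 widths overlapped.

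In DMSO more further peaks of MOLT4 than of DND41 lay near the sites. Within 25 kb, and counting other regions found in at least 2 libraries, DMSO libraries had on average 0.988 further peaks in DND41 and 1.26 in MOLT4. MOLT4 had more of them at 212 sites, or 42.2%, and DND41 at 89, or 17.7%. Over all shared regions the averages were 1.25 and 1.27, and the shares 28.6% and 27.6%. Around MOLT4-lost sites MOLT4 had more at 21.1% and DND41 at 48.8%. Within 10 kb of the DND41-lost sites the averages were 0.342 in DND41 and 0.473 in MOLT4. MOLT4 had more at 24.9% of sites and DND41 at 9.76%, where all shared regions gave 15.4% and 15.5%. These counts were not tested. At 115 sites, or 22.9%, no neighbouring peak was found in any DMSO library, much as for all shared regions, at 22.2%.

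Chromosomes contributed unequally. Chromosome 17 held 43 of the 502 sites, 5.06 for each 100 of its shared regions, and 5 MOLT4-lost sites. Chromosome 21 held 21, or 9.55 for each 100, of which 13 lay between 40 and 50 Mb among 85 shared regions. It also held 9 MOLT4-lost sites, or 4.09 for each 100. Chromosome 18 held 2, or 0.699 for each 100, against 19 MOLT4-lost sites. Over all shared regions there were 2.72 for each 100.

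The DMSO width at regions that kept their peak in both lines also varied by chromosome. Their median log2 difference was 0.13 on chromosome 17, 0.07 on chromosome 21 and -0.19 on chromosome 18, against -0.02 over all. On chromosome 17 all 4 MOLT4 libraries, at 0.13 to 0.20 above the library median, lay above all 4 DND41 libraries, at -0.11 to 0.10. On chromosome 18 MOLT4 stood at 0.10 to 0.25 and DND41 at 0.27 to 0.53. On chromosome 21 the lines overlapped, at 0.26 to 0.37 in MOLT4 and 0.18 to 0.29 in DND41. Chromosomes 19 and 22 had medians above that of chromosome 21, both 0.09, with 1.74 and 3.27 DND41-lost sites for each 100 shared regions. Chromosomes 14 and 13 had medians below 0, at -0.05 and -0.07, with 4.35 and 3.85 for each 100. Chromosomes 15 and 20, at 0.07 and 0.06, had 3.97 and 3.86. The shift on chromosome 17 was not even: windows of 10 Mb had medians of -0.0031 and -0.061 up to 20 Mb and of 0.13 to 0.23 beyond it, over all shared regions. On chromosome 18 all windows were between -0.29 and -0.18. DNA copy number was not measured, and its part in these values was not tested.

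**Figure D5:**
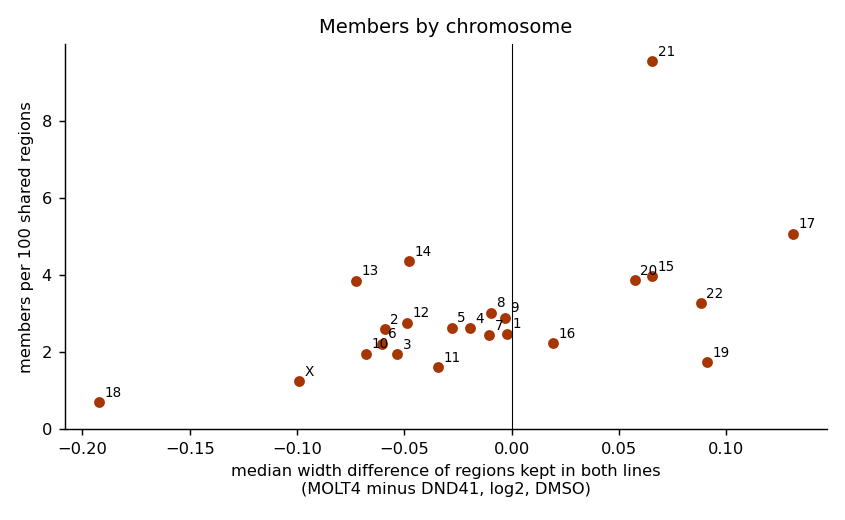
DND41-lost sites for each 100 shared regions of a chromosome, against the median DMSO width difference (MOLT4 minus DND41, log2, centred per library) of its regions kept in both lines. Each point is a chromosome. Chromosomes 17 and 21 stand high on the right and chromosome 18 low on the left.

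Across the 23 chromosomes this shift and the number of DND41-lost sites for each 100 shared regions had a Pearson r of 0.53 and a Spearman rho of 0.51. For MOLT4-lost sites r was -0.75 and rho -0.54. The points share the same 8 DMSO libraries. On chromosome 17 the DND41-lost sites had a median difference of 0.43, beside 0.13 at its regions kept in both lines. With widths centred within each library and chromosome, a choice made after the data were seen, 86 of the 502 sites were called wider in MOLT4, against a background of 2.32% (limma).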

How the data were processed

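The submitters' processing notes give the build as hg19 and list MACS2 2.1.1.2016030, Bowtie2, SAMtools and Picard, with no settings. The authors deposited 1 peak list per library with 4 columns (chromosome, start, end and name), so the only values used were positions in bp. Scores and read totals were not analysed here.

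Peaks were merged into regions, and the width of a region in a library was the sum of its peaks there. Log2 widths at the 18483 shared regions, centred on each library's median, were fitted with limma 3.58.1 in R 4.3.3 with line and time as terms, a mean trend, two-sided tests and Benjamini-Hochberg adjustment over all 18483. In simulated widths with the spread of the real ones, 200 regions taken at random from all shared regions were changed. After a change of 0.5 (log2), limma recovered 22.5% of them at an adjusted p under 0.05, with 1 false call. After a change of 1 it recovered 84.5%, with 12 false calls. The median SE was 0.223 at the DND41-lost sites and 0.156 over all shared regions, so these rates need not hold for the sites. Replicate numbers did not pair the libraries of the lines.

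The sites and the comparisons were chosen with earlier results of these data known. Sites were named by a rule: the 10 largest called differences without overlap, the 5 largest the other way, the 5 broadest with 0 and 4 ACBI-1 peaks, the 3 widest in DND41 and the 3 closest groups. No genome or annotation of build hg19 was used here, so the planned sequences, motifs, promoters and gene names were not examined.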

Additional observations from a re-analysis of the deposited data

Results flagged for a closer look

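In 48 groups of 4 libraries, the count of DND41-lost sites with a peak, their median width or the DMSO width of a named site was searched for a library far from the others, where chance flags about 1 group in 20. There were 4 such libraries. Replicate 2 of DND41 ACBI-1 at 3 h had a peak at 185 of the 502 sites, and the other 3 had 36 to 45. The rule used the calls under ACBI-1, so the rate of 1 in 20 does not hold for these counts. This flag is a description only. Named sites were picked by their DMSO widths, and each group joined 3 h and 24 h libraries. The rate of 1 in 20 need not hold for the widths of named sites either. Leaving replicate 2 of DND41 ACBI-1 at 3 h out of the rule altogether, so that none of the 3 others may have a peak, gave 377 sites. Of these, 72, or 19.1%, were called wider in MOLT4, against 2.42% of all shared regions (limma).

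MOLT4 DMSO replicate 1 at 3 h had 1092 bp at the site on chromosome 4 from 186130426, below the other 3. DND41 DMSO replicate 1 at 24 h had 319 bp on chromosome 6 from 117868734, above the others. MOLT4 DMSO replicate 1 at 24 h had 732 bp on chromosome 14 from 56683345, where the others had 168 to 242 bp.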

How the results depend on the processing

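Under 32 alternatives the median width difference of the DND41-lost sites stayed above 0, from 0.31 to 0.70. With lists cut to equal length, 162 sites remained among 13231 regions tested, with a median of 0.33. Of these sites 22 were called wider in MOLT4 and 1 in DND41, with 176 and 189 calls over all regions. The 22 were 13.6% of the sites, against a background of 1.33%. With 0 DND41 and 4 MOLT4 peaks required there were 104 sites, a median of 0.70, and 41 and 0 calls. The 41 were 39.4%, against a background of 2.42%. Without centring 1 site was called wider in DND41, and 185 regions in all. With a minimum peak width of 170 bp 1 site was called wider in DND41. With the 3 h libraries alone the median was 0.40, and limma gave 0 calls at 3 h and 0 at 24 h, sites and regions alike, both directions. At an unadjusted p under 0.05, 1241 regions were wider in MOLT4 and 1228 in DND41 at 3 h, and 1418 and 1489 at 24 h. A replicate block gave 70 and 1 sites and 291 and 314 regions. Its share called wider in MOLT4 was 13.9% of the sites and 1.57% of all regions. Same-numbered libraries of the lines did not deviate together, with correlations of -0.03 at 3 h and -0.01 at 24 h, so the numbers name libraries only.

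Leaving out 1 library gave 507 to 1071 sites, with medians of 0.31 to 0.54. Fewer ACBI-1 libraries make the rule looser, and fewer DMSO libraries let in more regions. Sites called wider in MOLT4 numbered 44 to 140 and in DND41 0 to 6, and regions 196 to 447 and 193 to 476. The share called wider in MOLT4 was 8.56 to 17.4% of the sites, with backgrounds of 1.03 to 2.42%. The line by time test called 0 to 5 regions. The overall log2 width difference between the lines ranged from -0.019 to 0.13, below 0 without DND41 DMSO replicate 2 at 3 h. Of 637 values for 21 named sites, 590 kept their direction and side of the threshold. Another 43 were no longer called, 26 of them with 1 time alone, 2 were newly called and 2 changed sign. Alternatives that changed only which regions counted as DND41-lost sites, such as leaving out an ACBI-1 library, used the same DMSO fit. Their values for named sites could not change and are among the 590, so that number overstates how stable the values were. Both sign changes were on chromosome 10 from 125000700, at -0.13 with 24 h alone and -0.051 without DND41 DMSO replicate 2 at 3 h, with 0.37 as the highest value on leaving out 1 library.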
